A study of Mus musculus with 6 samples.

Results

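The let-7 members let-7a, let-7b, let-7c, let-7d, let-7e and let-7f were chosen by name from a mouse quantitative PCR panel of microRNAs (miRNAs), and these 6 stand among 380 named miRNAs on the panel. All 6 had a threshold cycle (Ct) in every sample, as did 123 named miRNAs in all. The RNA came from exosomes, small membrane vesicles, isolated from the serum of mice at 2 weeks from ACLT. That abbreviation is read as cutting of the anterior cruciate ligament, an injury model of osteoarthritis. One group received vehicle (3 samples) and the other received OCExoInhib (3 samples), a name the labels do not spell out. All animals of both groups had undergone ACLT, so no uninjured mice stand beside them, and the labels give neither strain, sex, age nor dose. The design text describes pools of exosomal miRNA from 3 mice per group and leaves unsaid whether a group's samples are separate mice or repeat runs of a pool. Each p-value thus rests on the spread among these 6 samples alone, and that spread may be technical. The comparison asks which let-7 members differ in circulating exosomes when injured mice are given OCExoInhib.

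The let-7 family is among the most conserved groups of animal miRNAs. Its members share the seed, the stretch near the 5′ end with which a miRNA pairs with its target messenger RNAs, and they are known to repress growth genes such as Hmga2, Lin28 and Ras. The RNA-binding protein LIN28 in turn blocks the maturation of let-7 precursors. Several let-7 genes lie in clusters with each other or with miRNAs of the miR-99/miR-100 and miR-125 families. In serum, let-7 members are commonly detected as circulating miRNAs carried by vesicles and proteins.

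The mature sequences given in the deposited panel annotation are shown because the members differ by so few bases, and the seed (bases 2 to 8) is in capitals. The first 6 are the members, and the last 3 are the other miRNAs of the panel with the same seed.
let-7a: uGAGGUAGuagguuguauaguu
let-7b: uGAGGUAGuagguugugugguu
let-7c: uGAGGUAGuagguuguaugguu
let-7d: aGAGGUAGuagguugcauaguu
let-7e: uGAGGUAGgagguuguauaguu
let-7f: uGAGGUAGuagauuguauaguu
let-7g: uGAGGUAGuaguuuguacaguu
let-7i: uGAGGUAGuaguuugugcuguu
miR-98: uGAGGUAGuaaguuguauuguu

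All 9 sequences have 22 bases and the seed GAGGUAG, and all 6 members matched a mature sequence in RefSeq. Counted from 1 at the 5′ end, with the base of let-7a first, let-7e differs from let-7a by U9G, let-7f by G12A and let-7c by A19G. Let-7b differs by A17G and A19G, and let-7d by U1A and U16C. Over the 15 pairs of members the number of differing bases ran from 1 to 4. Cross-reaction of the assays between such sequences was not tested. Let-7g, let-7i and miR-98 had no Ct in any sample, nor did miR-202-3p and miR-202-5p. Of the 384 wells, 126 had a Ct in all samples, 258 had none and 0 had one in only some samples. A missing Ct is therefore not read as absence of a miRNA from these exosomes.

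Let-7e and let-7a were lower in serum exosomes of OCExoInhib-treated mice, while let-7b, let-7c, let-7d and let-7f did not pass the test. Let-7e was 36.3-fold lower and let-7a 13.0-fold lower relative to the normalizer wells of the plate. Of the 6 members, 2 (33.3%) fell and 0 rose, and over all 115 miRNAs tested 17.4% fell and 6.09% rose (limma, Benjamini-Hochberg adjusted p under 0.05). The median log2 difference was −0.60 over the 6 members and −0.54 over the 115 miRNAs. The 3 OCExoInhib samples lay wholly below the 3 vehicle samples for let-7e and let-7a, and for 20% of the 115 miRNAs. Both members that fell carried Ct gaps between samples that recurred, to within 0.0015 cycles, in unrelated miRNAs. These gaps are described below.

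Earlier cycles mean higher levels, with 1 cycle close to 1 doubling. The log2 level used here is the average Ct of the normalizer wells P21 to P23 minus the Ct of the miRNA, which is the deposited normalized value with its sign turned. Log2 differences are OCExoInhib minus vehicle.

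Let-7e had raw Ct values of 26.413, 25.543 and 25.474 in vehicle samples 1, 2 and 3, and of 31.087, 30.517 and 29.201 in OCExoInhib samples 1, 2 and 3. Every OCExoInhib sample was later than every vehicle sample. Its log2 level was 4.58, 5.03 and 5.72 in the vehicle samples and −0.74, 0.11 and 0.40 in the OCExoInhib samples. The group means were 5.11 ± 0.57 and −0.08 ± 0.59 (SD, n = 3 each), a log2 difference of −5.18 (SE 0.76, limma adjusted p = 7.56e-05). Let-7e differs from the other 5 members at the base just after the seed. By mean Ct it stood at place 31 of 123 miRNAs in vehicle and at place 75 in OCExoInhib samples, counted from the earliest. The fall stayed past the threshold under all 19 alternatives in which let-7e was tested, with log2 differences from −5.45 to −2.66 and adjusted p from 1.39e-05 to 0.0154. All of them drew on the same let-7e Ct values, which equalled those of miR-145 and miR-151-3p in each OCExoInhib sample, as described below. The alternative without miRNAs that carry recurring gaps left let-7e out, so none of the alternatives bears on that equality. Other Ct limits and treatments of late cycles could not move the log2 difference of let-7e, since none of its values was late.

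Let-7a, whose mature sequence is that of the founding nematode let-7, had Ct values of 28.642, 25.503 and 27.703 in vehicle and of 29.827, 31.135 and 29.820 in OCExoInhib samples. Vehicle 2 was the earliest by over 2 cycles, and the groups did not overlap. On the log2 scale the levels were 2.35, 5.07 and 3.49 against 0.52, −0.51 and −0.22. The means of 3.64 ± 1.36 and −0.07 ± 0.53 (SD, n = 3 each) differed by −3.70 (SE 0.84, limma adjusted p = 0.00255). The size rested in part on single samples, with a log2 difference of −2.99 without vehicle 2 and −4.34 without vehicle 1. The fall was smaller, and the call lost, with quantile normalization (−2.12, adjusted p = 0.237), without normalization (−2.98, 0.0502) and with sample median centring (−1.18, 0.180). At an unchanged log2 difference the call was also lost with the sample number as a block (adjusted p = 0.0692) and with an unmoderated test (0.0649). The shares of all tested miRNAs called lower were 7.83%, 13%, 9.57%, 15.7% and 9.57% under these 5 settings. With global mean normalization let-7a passed (−2.52, adjusted p = 0.0359) beside 12.2% of all. Over all 19 alternatives the log2 difference ranged from −4.34 to −1.18 and the adjusted p from 0.00131 to 0.237. As for let-7e, other Ct limits and treatments of late cycles could not move the log2 difference.

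**Figure D1:**
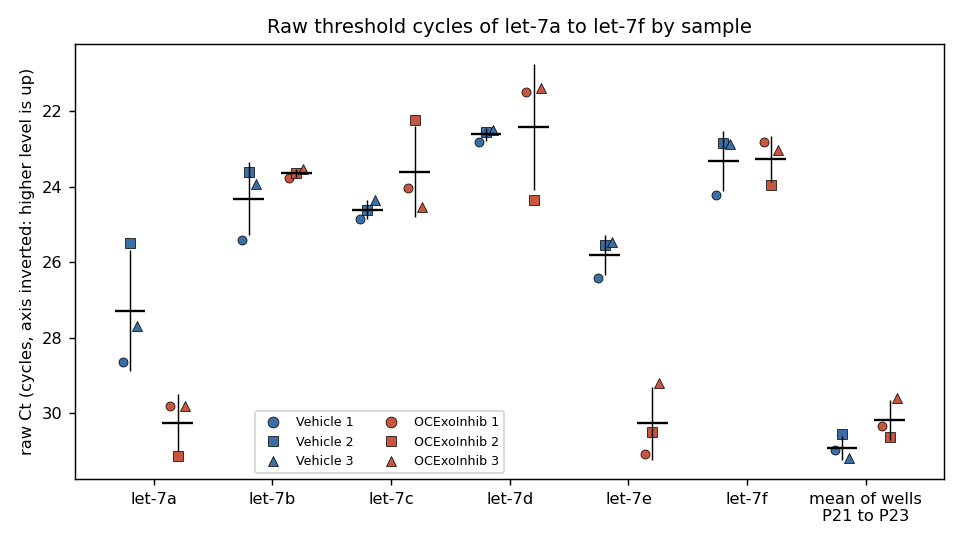
Raw Ct in cycles (inverted axis, so a higher level is up) of the 6 let-7 members and of the mean of wells P21 to P23, with 1 symbol per sample, a bar at the group mean and a line of 1 SD each way (n = 3 per group). Let-7a and let-7e lie at mean Ct 30.3 in OCExoInhib samples, beside the wells at 30.2, while the other 4 members stay between 21.394 and 25.407 in all samples.

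The 4 members that did not pass were those with the earlier mean Ct in both groups. Let-7d, the member with the earliest mean Ct in both groups, had values of 22.801, 22.542 and 22.495 in vehicle and of 21.498, 24.339 and 21.394 in OCExoInhib samples. OCExoInhib 2 was later than every other sample and the other 2 OCExoInhib samples were earlier. The log2 difference was −0.52 (SE 0.83, 95% interval −2.29 to 1.24, limma adjusted p = 0.866), and it was 0.22 without OCExoInhib 2.

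Let-7c showed the opposite deviation in the same sample. Its Ct was 24.843, 24.628 and 24.347 in vehicle and 24.042, 22.232 and 24.531 in OCExoInhib samples, with OCExoInhib 2 the earliest. Its log2 difference of 0.28 (SE 0.89, 95% interval −1.61 to 2.17, limma adjusted p = 0.870) became −0.62 without that sample. In OCExoInhib 2 let-7c was 2.107 cycles earlier than let-7d, while in each of the other 5 samples let-7d was the earlier one, by 1.852 to 3.137 cycles.

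Let-7b was the steadiest member in the OCExoInhib group, at Ct 23.756, 23.630 and 23.522, against 25.407, 23.606 and 23.929 in vehicle. Vehicle 1 was the latest sample and the other 5 lay close together. The log2 difference was −0.05 (SE 0.78, 95% interval −1.71 to 1.61, limma adjusted p = 0.962). Let-7f had Ct values of 24.230, 22.837 and 22.857 in vehicle and of 22.822, 23.957 and 23.023 in OCExoInhib samples, and the groups overlapped. Its log2 difference was −0.68 (SE 0.78, 95% interval −2.33 to 0.96, limma adjusted p = 0.866). These intervals do not show that the 4 members were equal in the groups, since each includes changes of more than 2-fold in at least 1 direction.

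The direction of let-7b, let-7d and let-7f depended on the normalizer, and let-7c was above 0 under each of the 5 normalizations. With global mean normalization let-7b, let-7d and let-7f were above 0, and without normalization they were as well. With sample median centring let-7b (log2 difference 2.48, adjusted p = 0.0194) and let-7c (2.81, adjusted p = 0.0158) passed as higher. Under that centring 49.6% of the 115 miRNAs were called higher and 9.57% lower, and the median of all 115 moved to 1.98. The median of the 6 members moved with it to 1.92. Let-7a and let-7e were below 0 under each of the 5 normalizations, and let-7e passed as lower under each.

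**Figure D2:**
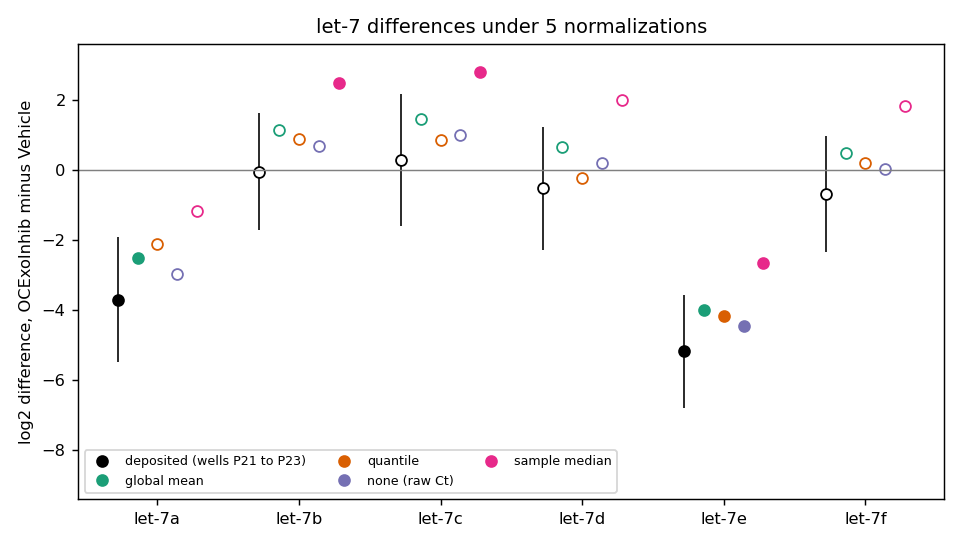
Log2 difference (OCExoInhib minus vehicle) of each let-7 member under 5 normalizations, with the 95% limma interval for the deposited one; filled points have an adjusted p under 0.05. Let-7e stays below 0 and filled throughout, let-7a is filled for 2 of the 5, let-7b, let-7d and let-7f move across 0 and let-7c lies above it.

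The normalizer wells averaged Ct 30.9 ± 0.318 in the vehicle group and 30.2 ± 0.531 in the OCExoInhib group (SD, n = 3 each), a difference of −0.725 cycles (exact two-sided permutation p = 0.2). The wells did not move alike. P21 differed by −1.0043 cycles with the groups apart (exact two-sided permutation p = 0.1). P22 differed by −1.2047 cycles and P23 by 0.035 cycles, with overlapping groups (exact two-sided permutation p = 0.2 and 0.9). The deposited normalized values, which rest on the average of these wells, are described as differences against a spike-in. The RNA of that spike-in is not named. The mean OCExoInhib Ct of let-7a (30.261), let-7e (30.268) and miR-125b-5p (30.285), whose hairpin lies in a cluster with one of the let-7a hairpins, lay within 0.1 cycle of the wells' 30.193. The 20 miRNAs that fell had mean OCExoInhib Ct values from 30.2 to 32.5, in a panel whose tested miRNAs ran from 20.4 to 34.9.

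A comparison that needs no normalizer is the gap between 2 members in the same sample. In vehicle samples the order from earliest to latest mean Ct was let-7d (22.6), let-7f (23.3), let-7b (24.3), let-7c (24.6), let-7e (25.8) and let-7a (27.3). Neighbours in this order whose order held in all 3 samples were let-7d and let-7f, let-7f and let-7b, and let-7c and let-7e, while let-7b and let-7c, and let-7e and let-7a, changed places in 1 sample. In OCExoInhib samples the order was let-7d (22.4), let-7f (23.3), let-7c (23.6), let-7b (23.6), let-7a (30.3) and let-7e (30.3). There the one step that held in all 3 samples was that from let-7b to let-7a, of 6.62 ± 0.771 cycles (SD, n = 3). The efficiency of each assay is not given in the sources used here, so these orders are of cycles and not of molecule numbers.

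With all samples the gap between let-7e and let-7c grew the most. Let-7c was earlier than let-7e by 1.570, 0.915 and 1.127 cycles in vehicle and by 7.045, 8.285 and 4.670 cycles in OCExoInhib samples. That is a shift of 5.46 cycles, or 44.1-fold, between miRNAs that differ in 2 bases. Without OCExoInhib 2, where let-7c was early, it was 4.65 cycles (25.2-fold). That was smaller than the shifts of let-7e against let-7d (5.50), let-7b (5.01) and let-7f (4.72) without the same sample. Without OCExoInhib 3 the shift against let-7c was 6.46 cycles (88.1-fold). The gap between let-7e and let-7b shifted by 5.14 cycles, that to let-7d by 4.66 and that to let-7f by 4.50. For let-7a the shifts against let-7c, let-7b, let-7d and let-7f were 3.98, 3.66, 3.18 and 3.02 cycles. With single samples left out, the 4 shifts of let-7e ran from 3.80 to 6.46 cycles and those of let-7a from 2.33 to 4.67 cycles, all in the same direction. All 8 of these gaps lay wholly apart between the groups, and the exact two-sided permutation p was 0.1 for each, unadjusted and the smallest that 3 samples against 3 can give.

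The 6 pairs among let-7b, let-7c, let-7d and let-7f shifted by 0.162 to 0.964 cycles, and in 0 of them were the groups apart. Let-7a against let-7e, which differ by U9G alone, shifted by 1.48 cycles with overlapping groups (exact two-sided permutation p = 0.3). In all, 8 of the 15 pairs were apart, against 36% of the 6555 pairs of tested miRNAs. Pairs share members, so they are not independent of each other. The 8 pairs apart each join let-7a or let-7e to another member and rest on the same Ct values as their falls, with the recurring gaps described below. They are thus no separate support.

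**Figure D3:**
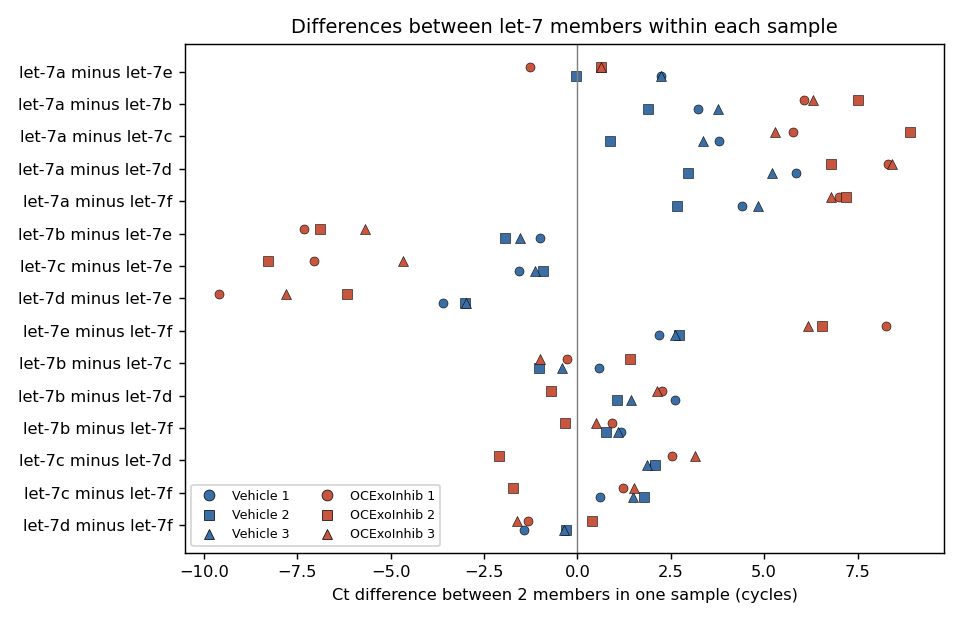
Difference in Ct (cycles) between 2 let-7 members within a sample, for all 15 pairs and with 1 symbol per sample. The 8 pairs that join let-7a or let-7e to another member separate vehicle from OCExoInhib samples, and the 6 pairs without them and the pair of let-7a and let-7e do not.

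The number of differing bases did not order these shifts. The 4 pairs that differ in 1 base shifted by 0.326 to 3.98 cycles, the 5 pairs with 2 differences by 0.964 to 5.46 and the 5 pairs with 3 differences by 0.162 to 5.14. Let-7a and let-7c, which differ by A19G alone, were apart between the groups, while let-7b and let-7c, which differ by G17A alone, were not. Let-7a and let-7f, with G12A between them, were 4.412, 2.666 and 4.846 cycles apart in vehicle and 7.005, 7.178 and 6.797 cycles apart in OCExoInhib samples.

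Because the members share a seed, their signals were also summed, taking 1 cycle as a doubling and the same efficiency for every assay. The log2 of the summed signal relative to the wells was 9.10, 9.50 and 10.06 in vehicle and 9.69, 9.34 and 8.95 in OCExoInhib samples. The groups overlapped, with means of 9.56 ± 0.48 and 9.32 ± 0.37 (SD, n = 3 each). Let-7d made up 42.7% ± 9.29 of the sum in vehicle and 42.6% ± 26.5 in OCExoInhib samples. In OCExoInhib 2 its share was 12.1% and that of let-7c 52.1%. Let-7e made up 4.36%, 4.49% and 4.92% of the sum in vehicle and 0.0728%, 0.167% and 0.267% in OCExoInhib samples. Let-7a and let-7e together went from 6.79% ± 2.04 to 0.321% ± 0.104 (SD, n = 3 each). The members that fell were thus the smaller part of the summed signal in every sample.

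The let-7 genes lie at several places in the mouse genome, given here from RefSeq on GRCm38.p6, since the deposited tables name no build. A mature let-7a of identical sequence comes from Mirlet7a-1 (mature bases chr13:48538239-48538260, minus strand) and from Mirlet7a-2 (chr9:41536732-41536753, plus strand). Let-7e comes from Mirlet7e (chr17:17830366-17830387, plus strand). These 3 hairpins are shown with the mature miRNA in capitals, since a measurement of mature let-7a cannot say which of its hairpins it came from.
Mirlet7a-1: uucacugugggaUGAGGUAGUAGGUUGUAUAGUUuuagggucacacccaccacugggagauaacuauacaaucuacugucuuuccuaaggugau
Mirlet7a-2: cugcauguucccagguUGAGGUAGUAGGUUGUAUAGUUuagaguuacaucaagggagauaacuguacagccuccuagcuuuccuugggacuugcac
Mirlet7e: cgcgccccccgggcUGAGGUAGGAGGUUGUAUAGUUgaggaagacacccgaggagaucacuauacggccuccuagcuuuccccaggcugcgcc

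Some clusters held both miRNAs that fell and miRNAs that did not pass. On chromosome 13 the hairpins of let-7a-1, let-7f-1 and let-7d follow each other on the minus strand, with 261 bases between the first 2 and 1714 between let-7f-1 and let-7d. Let-7a fell, and let-7f and let-7d did not pass. On chromosome 15 let-7c-2 and let-7b lie 621 bases apart, and neither passed. Let-7c is also made from let-7c-1 on chromosome 16, where the neighbouring miR-99a, 656 bases away, had no Ct. On the X chromosome let-7f-2 lies 785 bases from miR-98, which had no Ct.

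Of the 7 miR-99, miR-100 and miR-125 miRNAs on the panel, 4 had a Ct, 1 fell and 0 rose. Over all 115 miRNAs tested, 17.4% fell and 6.09% rose. On chromosome 9 let-7a-2 lies 5211 bases after miR-100 and 45114 bases before miR-125b-1. MiR-125b-5p, which is known to repress several apoptosis genes, had log2 levels of 2.80, 2.47 and 3.94 in vehicle and −0.86, 0.31 and 0.28 in OCExoInhib samples. The OCExoInhib samples lay wholly below the vehicle samples, as for 20% of the 115 miRNAs. The log2 difference was −3.16 (SE 0.78, limma adjusted p = 0.00488). This call was lost with global mean (−1.98, adjusted p = 0.110) and quantile normalization (−1.42, 0.397) and with sample median centring (−0.63, 0.465). Its mature sequence has 2 copies in RefSeq, so its level, like that of let-7a, cannot be assigned to the chromosome 9 hairpin. MiR-100 had levels of 3.55, 5.12 and 6.38 in vehicle and 4.77, 6.89 and 4.43 in OCExoInhib samples. It overlapped between the groups (log2 difference 0.35, SE 0.92, limma adjusted p = 0.870). Mirlet7e lies 367 bases before Mir125a on chromosome 17. From that hairpin miR-125a-5p had a log2 difference of −0.30 (SE 0.88) and miR-125a-3p one of 0.47 (SE 0.79), and neither passed. MiR-99b had no Ct.

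**Figure D4:**
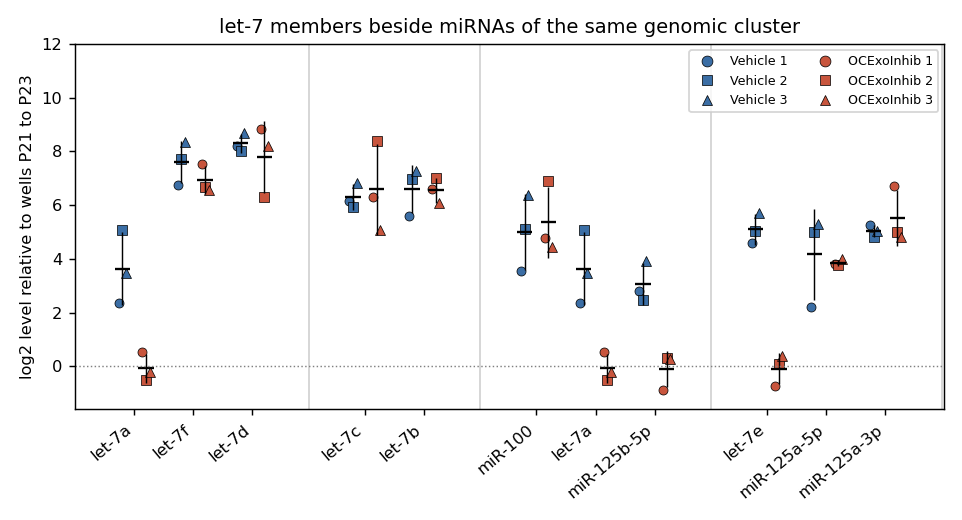
Log2 level relative to wells P21 to P23 of let-7 members beside miRNAs of the same genomic cluster, left to right chromosomes 13, 15, 9 and 17, with group means and 1 SD (n = 3); let-7a appears under both of its loci. In OCExoInhib samples let-7a, let-7e and miR-125b-5p lie near 0 while the other miRNAs shown lie between 3.78 and 8.85.

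Let-7e and let-7a carried Ct gaps between samples of a group that recurred in other miRNAs. Vehicle 1 minus vehicle 3 was 0.939 cycles for let-7a and for let-7e, and the same to within 0.0015 cycles for 17 of the 123 measured miRNAs, miR-125b-5p among them. OCExoInhib 1 minus OCExoInhib 2 was 0.570 for let-7e and 10 miRNAs in all, OCExoInhib 1 minus OCExoInhib 3 was 1.886 for let-7e and 10 in all, and OCExoInhib 2 minus OCExoInhib 3 was 1.316 for let-7e, 1.315 for let-7a and within the tolerance for 5 in all. Among tested miRNAs 20% carried such a gap, as did 19 of the 20 that fell and 2 of the 6 members. Let-7b, let-7c, let-7d and let-7f carried none.

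In the OCExoInhib samples the Ct values of let-7e equalled those of miR-145 and miR-151-3p to the last digit, 31.087, 30.517 and 29.201. In vehicle samples the same miRNAs differed, with miR-145 at 28.532, 27.267 and 27.594 and miR-151-3p at 28.331, 25.860 and 27.613. The sequences, with bases 2 to 8 in capitals, are shown because they have no seed in common with let-7e.
miR-145: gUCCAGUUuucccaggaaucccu
miR-151-3p: cUAGACUGaggcuccuugagg
miR-125b-5p: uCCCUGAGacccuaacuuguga

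With every miRNA that carries a recurring gap left out, let-7a and let-7e were not tested and 0 of the 4 other members passed by limma, where 1.09% of 92 miRNAs fell and 4.35% rose. None of these 4 had an unadjusted p under 0.05 in the fit over 115 miRNAs. The part of the recurring gaps in the falls of let-7a and let-7e was not tested.

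**Figure D5:**
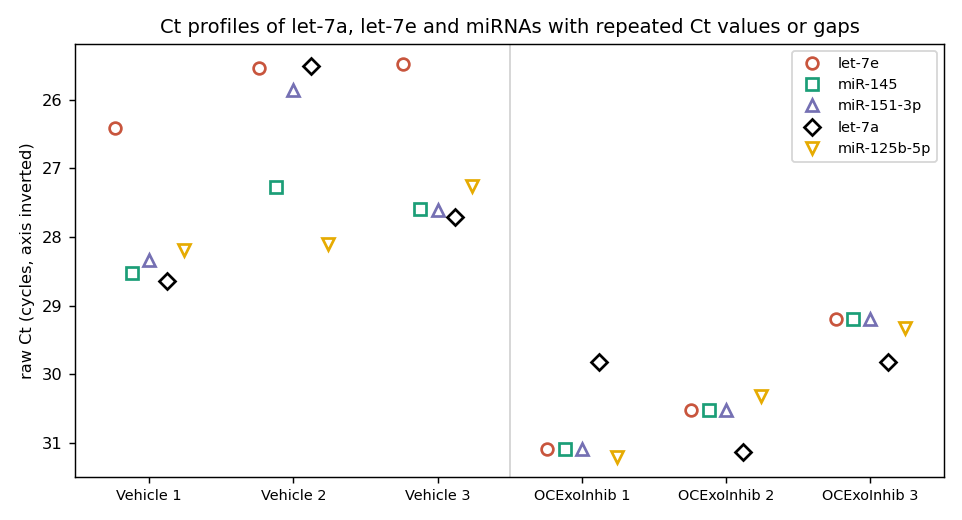
Raw Ct in cycles (inverted axis) of let-7e, let-7a and 3 miRNAs in each of the 6 samples; symbols are set side by side so that equal values can be seen. MiR-145 and miR-151-3p have the same Ct as let-7e in each OCExoInhib sample and different values in the vehicle samples.

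For each member the 2 miRNAs nearest in raw Ct were named by the root mean square of the Ct difference over the 6 samples, as a description only. Let-7e was nearest to miR-21 (0.713 cycles) and miR-378 (0.777 cycles), and let-7a to miR-151-3p (0.656) and miR-340-3p (0.857). All 4 of these fell, with log2 differences from −5.18 for miR-378 to −3.72 for miR-151-3p, and each carried a recurring Ct gap. Let-7d was nearest to miR-34c (0.552), which shared its late value in OCExoInhib 2 at Ct 25.078, and then to miR-30e (1.02). Let-7b was nearest to miR-92b (0.645) and miR-669b (0.736), let-7c to miR-669b (0.739) and let-7b (0.875), and let-7f to miR-92b (0.830) and let-7b (0.852). None of the miRNAs nearest to these 4 members passed by limma. Nearness was measured on the same Ct values as the group differences. A nearest miRNA thus largely shares its member's result by construction, and these calls are no separate support. Neither let-7a nor let-7e had another let-7 member among its nearest 2.

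Serum exosomes carry miRNAs of many cells, and fewer vesicles from a cell type and less miRNA per vesicle cannot be told apart here. Of 18 markers of red cells, platelets, leukocytes, liver, muscle and endothelium on the panel, 8 had a Ct. MiR-451, miR-486, miR-122, miR-126-3p, miR-142-3p and miR-155 were among those without one, which is not read as absence. MiR-16, miR-21 and miR-133a fell, and all 3 carried a recurring Ct gap. MiR-144 of red cells (log2 difference −0.56, limma adjusted p = 0.866) and miR-206 of muscle (−0.28, 0.870) did not pass, and miR-223 of platelets was not tested because of late cycles. The summed log2 level ran from 4.74 to 7.29 in vehicle and from 2.75 to 4.65 in OCExoInhib samples for 2 measured red cell markers of 4. For 2 platelet markers of 3 it ran from 3.75 to 5.77 and from −0.45 to 0.57, and for 2 muscle markers of 4 from 1.76 to 2.95 and from −1.09 to 1.06. For the 1 measured leukocyte marker of 4 (2.27 to 3.86 and 3.36 to 4.00) and the 1 liver marker of 2 (5.04 to 7.25 and 4.46 to 6.39) the groups overlapped. The red cell, platelet and muscle sums moved the same way as let-7a and let-7e. Each of these sums held 1 miRNA that fell (miR-16, miR-21 and miR-133a in turn) beside 1 that was not called. They are thus not read as changes of a cell type, and their part in the falls of let-7a and let-7e was not tested.

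The authors' deposited table gives vehicle over OCExoInhib as a fold. In the authors' deposited table this was 36.328 for let-7e, 13.02 for let-7a, 1.607 for let-7f, 1.436 for let-7d, 1.033 for let-7b and 0.824 for let-7c. No member thus had a fold between 1.607 and 13.02 in the authors' deposited table.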

How the data were processed

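Per the labels' protocols, exosomal RNA was column-purified, reverse transcribed and measured with SYBR Green over 40 cycles. The deposited raw values are Ct per the file headers, and per the file headers the deposited normalized values are log2-scale Ct differences against a spike-in. They equalled raw Ct minus the average of wells P21 to P23 in every sample. Per the file headers, the authors' fold table is a linear ratio, vehicle divided by OCExoInhib. How the threshold was set and wells left empty is not given in the sources used here. Both per-sample tables held 0 columns beyond the 6 samples.

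A miRNA was tested if at least 3 samples had Ct below 35, which left 115. All 6 members passed this filter, and their latest Ct was 31.135, so no member value was late. Array depth is set by cycles, and the number of samples limits the precision. The group comparison used limma 3.58.1 under R 4.3.3 (lmFit, eBayes, two-sided, Benjamini-Hochberg over all 115), checked on simulated data. Single values were compared with exact permutation tests in scipy 1.17.1. Of all 115 miRNAs, 20 fell and 7 rose. The members, lists and alternatives were chosen with earlier results of these data known. Named miRNAs are the members, the let-7 relatives on the panel, the cluster neighbours, the 2 nearest miRNAs per member, the normalizer wells and cell markers. MiR-145 was named after its values were seen. Alternatives were other normalizations, Ct limits, treatments of late cycles, variance models, a block for the sample number, single samples left out, vehicle 1 and 3 averaged and the exclusion of miRNAs with recurring gaps.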

Additional observations from a re-analysis of the deposited data

How the results depend on the processing

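The number of members called was 2 with the deposited normalization. It was 1 with quantile normalization, 1 without normalization and 1 with the unmoderated test. It was 0 without miRNAs that carry a recurring gap, because both called members were left out. Of all miRNAs tested, 17.4% were called lower with the deposited normalization, and 7.83%, 13%, 9.57% and 1.09% under these other settings in turn. Sample median centring gave 3, of which 1 was lower and 2 were higher, beside 9.57% of all 115 miRNAs lower and 49.6% higher. The median log2 difference of the members was 0.57 with global mean normalization and 1.92 with sample median centring. Over all 115 miRNAs it was 0.64 and 1.98. Global mean normalization turned let-7b to 1.13, let-7d to 0.66 and let-7f to 0.49. Quantile normalization turned let-7b to 0.88 and let-7f to 0.20. Raw Ct turned let-7b to 0.68, let-7d to 0.20 and let-7f to 0.041, and median centring turned them to 2.48, 2.00 and 1.84. Apart from the exclusion, the cause was not tested.

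With single samples left out there were 2 called members in each fit. In these fits 14.8% to 17.4% of the 115 miRNAs were called lower and 6.09% higher. The medians of the members ran from −1.02 to −0.32, beside −0.71 to −0.34 over all 115 miRNAs. The differences of the average of the normalizer wells ran from −0.942 to −0.429 cycles. Leaving out single samples gave −0.56 to 0.28 for let-7b, −0.62 to 1.04 for let-7c and −1.06 to 0.22 for let-7d. The deviations of same-numbered samples from their group means had correlations of 0.0587, 0.0177 and 0.117, which does not show pairing. Blocking on the sample number left 1 called member, let-7e, beside 15.7% of the 115 miRNAs called lower. The averaging of vehicle 1 and 3 and the trended robust variance kept let-7a and let-7e past the threshold. So did the Ct limits and treatments of late cycles, but these could not move a member's log2 difference, since the latest member Ct was 31.135.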
